A study of Mus musculus with 6 samples.

Results

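Thg1l, Uqcrq, Lyrm7, Rnf187, Hist3h2ba, Hist3h2a and 2610507I01Rik are 7 genes of mouse chromosome 11, on the lower-coordinate side of Nlrp3, whose RNA level differed between wild-type and Nlrp3-/- cells of the injured rotator cuff enthesis. They were picked because they differed between the genotypes in 2 or more cell types and lie within 20 Mb of Nlrp3, and they are 7 of the 32285 genes in the matrices. The same libraries and the same contrast chose them. Their genotype differences, and the counts of cell types in which the genotype fit called them, are therefore a description and support nothing. Their levels across cell types within a genotype were tested. The choice did not compare cell types, but it drew on the same UMIs, so these tests are not fully free of it.

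Single-cell RNA sequencing was performed on the enthesis, where the supraspinatus tendon meets bone, at 7 days post injury (dpi). There were 3 libraries from wild-type C57BL/6 mice and 3 from Nlrp3-/- mice, a knockout line obtained from Cyagen whose strain is not given in the sources used here. All mice underwent transection and suture repair of the tendon at 12 to 14 weeks of age, and harvested tissue was pooled. The n of mice that the study gives per genotype equals the number of libraries, and the labels do not say whether a library held a single mouse. The groups follow the sample titles, although the genotype field of Nlrp3-/- replicates 2 and 3 reads Nlrp4 knockout and Nlrp5 knockout.

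Replicates are libraries, so the spread among them may be technical in part. The libraries held 97042713 to 134901999 unique molecular identifiers (UMIs), and 70519 cells were used, 9316 to 14987 per library. Cells fell into 12 types with at least 33 cells in every library, each cluster named from at least 5 of its type's markers, and levels below are CPM, counts per 1000000 of the UMIs summed over the cells of a type in a library. A further 8 clusters with 10376 cells, of which at least 96.3% in each came from Nlrp3-/- replicate 1, were set aside (with them, 39 of the 43 calls counted below were kept), and pairs of libraries shared 26 to 94 cell barcodes. Of Nlrp3-/- replicate 1, 10224 cells were set aside and 10787 used. Its used cells were shallower in some types. Median UMIs per cell were 2368.5 in its myeloid progenitors, against 13889 to 17520 in the other libraries, and 2542.5 in its endothelial cells, against 7277.5 to 11837. The targeted gene followed the titles: Nlrp3 was at 93.7, 164 and 135 CPM over all cells of wild-type replicates 1, 2 and 3 (35142 UMIs) and at 0 UMIs in each Nlrp3-/- library. Sex is not in the labels, but Xist was at 0.0238 to 0.102 CPM in the wild-type libraries and at 784 to 932 CPM in the Nlrp3-/- libraries, whereas the summed Y-linked genes Ddx3y, Eif2s3y, Kdm5d and Uty were at 70.7 to 127 CPM and 0.0182 to 0.0317 CPM. Genotype and sex therefore cannot be told apart in any genotype difference given here.

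By function the genes fall into 4 groups. Uqcrq encodes a small subunit of respiratory chain complex III, which passes electrons from ubiquinol to cytochrome c in the inner mitochondrial membrane, and Lyrm7 encodes a LYR-motif protein that acts as an assembly factor for the iron-sulfur subunit of the same complex. Thg1l encodes the enzyme that adds a guanosine to the end of histidine tRNA, which the histidyl-tRNA synthetase needs to recognise it. Rnf187 encodes a RING-domain ubiquitin ligase known as a co-activator of the AP-1 factor c-Jun. Hist3h2a and Hist3h2ba encode core histones H2A and H2B. Most histone messages of dividing cells end at a stem-loop in place of a poly(A) tail, whereas the libraries here were primed on poly(A). 2610507I01Rik is a long non-coding RNA with no function known well enough to state here.

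In the GENCODE vM21 annotation (build GRCm38), Nlrp3 lies on the plus strand at chr11:59541568-59566956. Thg1l (chr11:45946843-45955494, minus strand) is the farthest member, 13.6 Mb away. Uqcrq (chr11:53427922-53430831, minus strand) and Lyrm7 (chr11:54826866-54860916, minus strand) lie 6.11 and 4.68 Mb away. Rnf187 (chr11:58932288-58938916, minus strand), Hist3h2ba (chr11:58948920-58949533, plus strand) and Hist3h2a (chr11:58954685-58956830, plus strand) follow one another at 0.603, 0.592 and 0.585 Mb from Nlrp3, with 10003 and 5151 bases between them. The last, 2610507I01Rik (chr11:59199836-59202385, minus strand), is 0.339 Mb from Nlrp3 and starts 100 bases from Mrpl55, which is read in the opposite direction. Hist3h2a overlaps Trim17 in the annotation, and reads of the 2 genes were not separated further here. Of the 60-base words in the last 500 bases of Hist3h2ba, 77 of 441 (17.5%) also occur in the pseudogene Hist3h2bb-ps, which is not a feature of the matrices, and no such word was shared for the other 6 genes.

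Rnf187, Hist3h2ba and Hist3h2a, consecutive among the tested genes, had their highest wild-type mean in the same cell type, plasmacytoid dendritic cells. For Hist3h2ba and Hist3h2a these cells did not differ from the next type, B cells (adjusted p = 0.75 and 0.38, edgeR quasi-likelihood test). With that limit, the 250 bases before their RefSeq start (build GRCm38.p6) are shown, 5′ to 3′ on the strand of each gene. Capitals mark the word CCAAT, the word TATAAA and the octamer ATTTGCAT on either strand, elements found in many histone promoters. The windows are chr11:58938907-58939156 for Rnf187, chr11:58948661-58948910 for Hist3h2ba and chr11:58954435-58954684 for Hist3h2a.
Rnf187: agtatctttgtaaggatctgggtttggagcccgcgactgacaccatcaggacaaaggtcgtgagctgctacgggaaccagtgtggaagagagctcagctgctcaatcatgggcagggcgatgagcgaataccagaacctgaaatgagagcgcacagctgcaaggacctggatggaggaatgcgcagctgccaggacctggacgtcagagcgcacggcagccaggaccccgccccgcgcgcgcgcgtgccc
Hist3h2ba: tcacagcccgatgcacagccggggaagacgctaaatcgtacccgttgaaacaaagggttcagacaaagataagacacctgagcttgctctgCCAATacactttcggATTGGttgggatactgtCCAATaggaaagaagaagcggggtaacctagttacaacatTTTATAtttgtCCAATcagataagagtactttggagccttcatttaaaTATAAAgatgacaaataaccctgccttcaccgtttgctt
Hist3h2a: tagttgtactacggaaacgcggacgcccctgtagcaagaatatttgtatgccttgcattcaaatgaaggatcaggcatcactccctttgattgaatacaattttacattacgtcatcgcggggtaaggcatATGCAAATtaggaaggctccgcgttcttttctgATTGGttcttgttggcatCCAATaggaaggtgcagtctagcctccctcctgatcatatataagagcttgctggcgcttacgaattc

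The Hist3h2ba window held CCAAT 4 times, at 72 to 155 bases before the start, and TATAAA 2 times, the nearer one 34 bases before the start on the gene's own strand. The Hist3h2a window held CCAAT 2 times and the octamer 1 time, and the Rnf187 window held none of the 3 words. Among the windows not shown, that of Lyrm7 held CCAAT 2 times and TATAAA 1 time, and that of 2610507I01Rik none. The Thg1l windows held CCAAT 1 time and TATAAA 2 times. Among all 32851 windows of this length in the RefSeq promoter table, CCAAT occurred in 33.8%, TATAAA in 12.4% and ATTTGCAT in 1.6%. CCAAT occurred 2 times or more in 10.1% and 3 times or more in 2.8%. These words are short and their presence is a description only. RefSeq promoters were found for 6 of the 7 genes.

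Both histone transcripts of GENCODE hold the 16-base histone stem-loop, shown in capitals with 5 bases on each side, since the libraries were primed on poly(A) and the stem-loop is where such messages usually end.
Hist3h2ba: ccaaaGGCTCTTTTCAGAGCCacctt
Hist3h2a: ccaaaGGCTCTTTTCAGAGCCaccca

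In Hist3h2ba the stem-loop begins at base 430 of a 614-base transcript, with 169 bases after it. In Hist3h2a it begins at base 488 of a 2146-base transcript, with 1643 bases after it. Each annotated transcript then ends with the poly(A) signal AATAAA, 27 and 34 bases before its end. The same 16 bases occur in 31 of 141767 transcripts, from 29 genes.

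**Figure D1:**
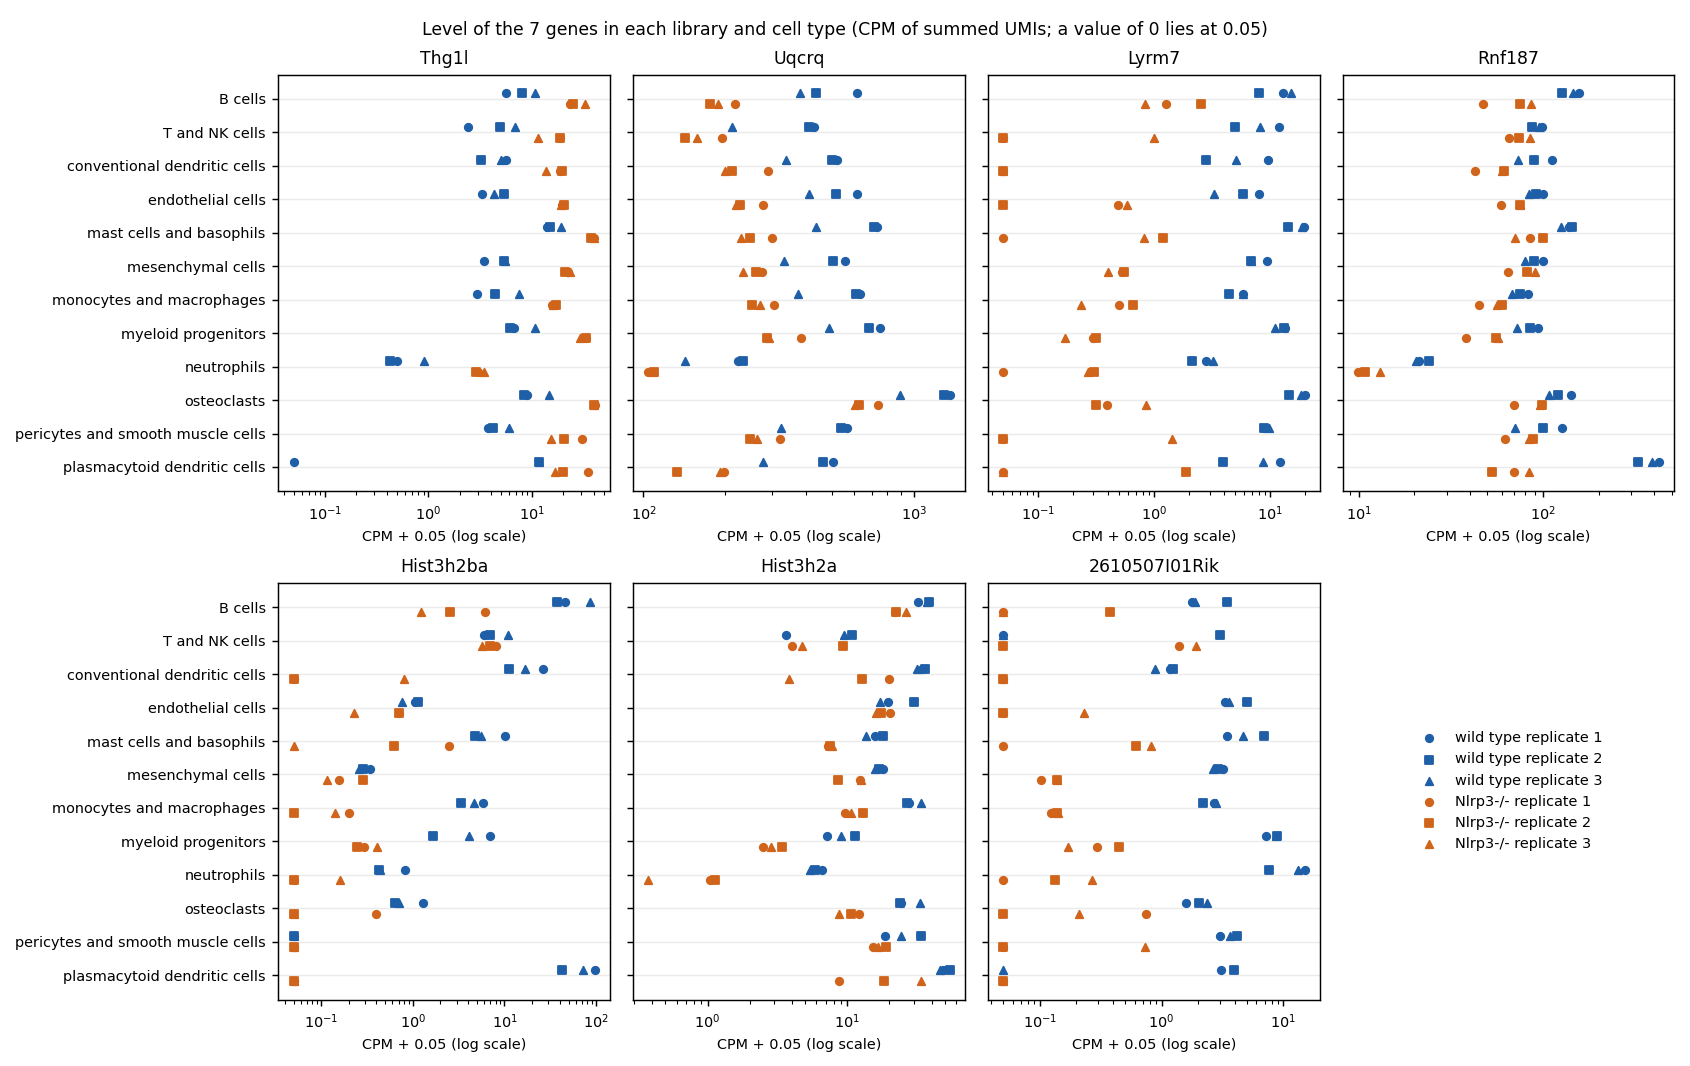
Level of the 7 genes in each library and cell type. Each panel is 1 gene, rows are the 12 cell types, and the x axis is CPM of the summed UMIs plus 0.05 on a log scale; blue symbols are the 3 wild-type libraries, orange symbols the 3 Nlrp3-/- libraries, and a symbol shape stands for a replicate number. For Thg1l the orange symbols lie to the right of the blue ones in every row, and for Uqcrq and Lyrm7 to the left of them in every row.

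Members were counted as past the threshold of the genotype contrast at an adjusted p under 0.05 (edgeR quasi-likelihood test, Benjamini-Hochberg over all genes tested in a type). Of 84 pairs of gene and cell type, 65 had enough UMIs to be tested and 43 were past it, 8 higher and 35 lower in Nlrp3-/- cells. Across all genes 0.278% were past it in B cells, 0.995% in T and NK cells, 1.33% in conventional dendritic cells, 0.304% in endothelial cells, 0.231% in mast cells and basophils, and 0.115% in mesenchymal cells. In the remaining types the share was 0.369% in monocytes and macrophages, 0.454% in myeloid progenitors, 0.67% in neutrophils, 0.795% in osteoclasts, 0.335% in pericytes and smooth muscle cells, and 2.0% in plasmacytoid dendritic cells. The members were selected on this contrast, so nothing is read from their count against these shares. Over all tests of all genes in the 12 types, the 3 Nlrp3-/- libraries all lay above the 3 wild-type libraries in 17.2% and all below them in 4.94%. Statements below that a member's groups did not overlap stand against these shares, and nothing is read from them either. The low-count filter kept a pair in part through the genotype in which the gene was high, and the 19 pairs that were not tested are described by their UMIs.

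Thg1l was the member that was higher in Nlrp3-/- cells. Over all cells its level was 3.90, 4.94 and 7.17 CPM in wild-type replicates 1, 2 and 3 and 21.1, 21.9 and 21.5 CPM in the Nlrp3-/- replicates (1403 against 5480 UMIs). Every Nlrp3-/- library was above every wild-type library in all 12 cell types, and the Nlrp3-/- libraries lay closer together than the wild-type ones over all cells. In osteoclasts, the bone-resorbing cells of the myeloid lineage, Thg1l was at 8.92, 8.24 and 14.4 CPM in wild type against 40.4, 40.0 and 40.0 CPM. Mesenchymal cells, the source of tendon and cartilage matrix, gave 3.39, 5.28 and 5.48 CPM against 22.1, 20.7 and 23.4 CPM. Of the 10 types tested 8 were past the threshold, and the log2 difference (Nlrp3-/- minus wild type) had a median of 1.79 and ran from 1.11 ± 0.21 (SE, n = 3 libraries per genotype) in mast cells and basophils to 2.23 ± 0.37 in neutrophils. In plasmacytoid dendritic cells, which were not tested, it rested on 7 and 17 UMIs, with 0 CPM in wild-type replicate 1. The number of types past the threshold fell to 3 when wild-type replicate 2 or either of Nlrp3-/- replicates 1 and 3 was left out, and to 4 without wild-type replicate 1 or Nlrp3-/- replicate 2, while the median stayed between 1.68 and 1.96.

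Uqcrq, the complex III subunit, was lower in Nlrp3-/- cells. Over all cells it was at 579, 552 and 362 CPM in the wild-type libraries and at 302, 249 and 255 CPM in the Nlrp3-/- libraries (132676 against 66859 UMIs). The groups did not overlap in any of the 12 types, and wild-type replicate 3 was the lowest wild-type library in all 12 of them. In pericytes and smooth muscle cells the gap was narrow, with wild-type replicate 3 at 321.9 CPM and Nlrp3-/- replicate 1 at 318.9 CPM. In T and NK cells the same 2 libraries were at 212.2 and 195.9 CPM. Osteoclasts had 1360, 1290 and 892 CPM in wild type and 741, 627 and 609 CPM in Nlrp3-/-. Neutrophils had 223, 233 and 142 CPM against 104, 109 and 108 CPM. The log2 difference had a median of -1.19 over 12 types, from -1.46 ± 0.24 in mast cells and basophils to -0.91 ± 0.23 in pericytes and smooth muscle cells, and 8 types were past the threshold. The count depended on single libraries: 12 types were past it without wild-type replicate 3, but 0 without Nlrp3-/- replicate 2, 1 without wild-type replicate 1 or Nlrp3-/- replicate 3, 2 without wild-type replicate 2 and 4 without Nlrp3-/- replicate 1. With all libraries kept, 12 types were past it by DESeq2 and 4 with no doublet removal, where both dendritic types were not recovered. The direction was the same in each of these fits.

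The other 9 subunits of complex III were examined to place Uqcrq beside its partners. Their 108 tests gave 2 past the threshold by edgeR, Uqcr10 in conventional dendritic cells (log2 difference -0.79 ± 0.17) and Uqcrb in plasmacytoid dendritic cells (-0.96 ± 0.22). Of the tests of all genes 0.541% were past it. A DESeq2 count for these subunits is not given here, so this edgeR count does not stand beside the DESeq2 count of Uqcrq. The median over the 108 tests was -0.53, against 0.021 over all genes. At an unadjusted p under 0.05 there were 70 of the 108, where 16.2% of the tests of all genes were. The 8 nuclear-encoded subunits summed over all cells to 2306, 2327 and 1754 CPM in wild type and 1846, 1556 and 1554 CPM in Nlrp3-/-. Wild-type replicate 3 thus lay below Nlrp3-/- replicate 1 for the summed partners, which was not so for Uqcrq. The mitochondrial subunit mt-Cytb, at 1817, 2422 and 2075 CPM against 2116, 2488 and 2581 CPM, had a median log2 difference of -0.04. The 5 assembly factors other than Lyrm7 gave 0 of 54 tests past the threshold by edgeR, with 14 at an unadjusted p under 0.05 and a median of -0.22, and DESeq2 put 6 of the 38 tests to which it gave an adjusted p past the threshold, against 3.64% of such tests over all genes.

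Lyrm7, the assembly factor, was lower in Nlrp3-/- cells by more on the log2 scale than Uqcrq. Over all cells it was at 8.72, 6.49 and 8.08 CPM in wild type and at 0.401, 0.560 and 0.354 CPM in Nlrp3-/- (2036 against 112 UMIs). No Nlrp3-/- library reached the lowest wild-type library in any of the 12 types. Myeloid progenitors, which feed the neutrophil and monocyte lineages, had 13.4, 13.2 and 10.9 CPM in wild type against 0.245, 0.263 and 0.120 CPM, the widest log2 difference at -5.99 ± 0.35. B cells had the narrowest, -2.82 ± 0.43, from 12.7, 7.95 and 15.1 CPM to 1.21, 2.47 and 0.789 CPM. All 9 types tested were past the threshold, with a median of -4.14. Without wild-type replicate 1 or Nlrp3-/- replicate 2 there were 5, and 6 without Nlrp3-/- replicate 1 or 3. DESeq2 gave an adjusted p in 4 types, all 4 past the threshold. Conventional dendritic cells were not tested and held 30 UMIs in wild type and 0 in Nlrp3-/-, which is at least 5.90-fold lower when 3 counts over the group are allowed. The 112 UMIs left in Nlrp3-/- cells came from all 3 libraries, with 109 in 11 of the 12 types, 2 in erythroid cells and 1 in unnamed cells. Among the 10 other LYR-motif genes, 2 of 100 tests were past the threshold, both of Fmc1, an ATP synthase assembly factor (-0.60 ± 0.11 in myeloid progenitors and -0.72 ± 0.14 in osteoclasts), where 0.541% of the tests of all genes were. At an unadjusted p under 0.05 there were 41 of the 100, against 16.2% of all tests, and the median was -0.34. The antisense gene Lyrm7os, which does not overlap Lyrm7 in the annotation, was covered by 3 UMIs of Nlrp3-/- replicate 2 and by none in the other libraries, over all barcodes.

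Rnf187 showed a difference that varied with the cell type. Over all cells it was at 89.7, 83.3 and 78.9 CPM in wild type and at 53.2, 67.7 and 72.8 CPM in Nlrp3-/- (22218 against 16944 UMIs), so the groups did not overlap but Nlrp3-/- replicate 3 came close to the lowest wild-type library. In plasmacytoid dendritic cells, the main producers of type I interferon, it was at 427, 327 and 392 CPM in wild type and at 69.2, 52.6 and 83.4 CPM in Nlrp3-/- (362 against 47 UMIs). That was a log2 difference of -2.72 ± 0.25. Mesenchymal cells stood at the other end, with 99.9, 88.8 and 79.7 CPM against 64.8, 82.0 and 90.2 CPM, groups that overlapped, and a log2 difference of -0.24 ± 0.17. The groups also overlapped in pericytes and smooth muscle cells. The median over the 12 types was -0.76, and 3 types were past the threshold: plasmacytoid dendritic cells, conventional dendritic cells (-0.96 ± 0.21) and neutrophils (-1.19 ± 0.18). Nlrp3-/- replicate 1 was the lowest Nlrp3-/- library in 10 of the 12 types, and without it 1 type was past the threshold, as without wild-type replicate 1, wild-type replicate 2 or Nlrp3-/- replicate 2. Without Nlrp3-/- replicate 3 there were 2 and without wild-type replicate 3 there were 10, against 9 with no filter on low counts and 8 by DESeq2. Of the 9 AP-1 factor genes, 0 of 104 tests were past it by edgeR, with 23 at an unadjusted p under 0.05 (16.2% over all genes) and a median log2 difference of 0.01. By DESeq2 9 of 91 were past it, against 3.64% over all genes.

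The H2B gene Hist3h2ba was lower in Nlrp3-/- cells of B, dendritic and myeloid types. B cells had 46.1, 37.5 and 85.0 CPM in wild type and 6.04, 2.47 and 1.18 CPM in Nlrp3-/- (713 against 23 UMIs), a log2 difference of -4.57 ± 0.44. Plasmacytoid dendritic cells had 96.9, 42.4 and 72.0 CPM against 0 in all 3 Nlrp3-/- libraries, 68 UMIs against 0, which is at least 19.0-fold lower by the same 3-count limit. In conventional dendritic cells the level was 26.3, 11.03 and 16.6 CPM against 0, 0 and 0.754 CPM (95 against 1 UMIs). None of these groups overlapped. Monocytes and macrophages had 5.73, 3.33 and 4.55 CPM against 0.149, 0 and 0.0920 CPM (228 against 4 UMIs). T and NK cells were the exception among lymphoid cells, at 5.94, 6.88 and 10.8 CPM in wild type and 7.99, 6.97 and 5.64 CPM in Nlrp3-/-. There the groups overlapped, on 20 and 18 UMIs, and the pair was not tested. In erythroid cells, which were left out of the fits because wild-type replicate 2 had 17 of them, the groups also overlapped, at 51.0, 20.6 and 37.2 CPM against 5.75 to 24.1 CPM. The gene was past the threshold in 5 of 6 types tested (DESeq2 gave an adjusted p in 2 of them, both past it), was not detected in pericytes of either genotype, and rested on 132 UMIs in all Nlrp3-/- cells.

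Hist3h2a, the H2A gene 5151 bases farther on, was lower as well, by a smaller amount. Over all cells it was at 17.4, 19.9 and 18.7 CPM in wild type and at 10.7, 8.71 and 10.3 CPM in Nlrp3-/- (4964 against 2487 UMIs). Neutrophils, the short-lived granulocytes of acute inflammation, showed the widest difference, with 6.54, 5.79 and 5.36 CPM against 0.988, 1.09 and 0.327 CPM and a log2 difference of -3.15 ± 0.38. Monocytes and macrophages had 27.7, 26.6 and 33.6 CPM against 9.61, 12.9 and 10.5 CPM (-1.56 ± 0.13). These groups lay well apart. Endothelial cells did not separate, with 19.5, 29.7 and 17.04 CPM against 20.2, 17.3 and 15.98 CPM (-0.49 ± 0.24), and T and NK cells and pericytes and smooth muscle cells overlapped too. The median was -1.44 over 11 types tested, 5 of them past the threshold. Without wild-type replicate 1 or Nlrp3-/- replicate 3 there were 3.

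Other H2A and H2B genes were counted for comparison. Of 34 clustered H2A and H2B genes, 26 were tested, and 1 of 160 tests was past the threshold, Hist1h2bc in neutrophils at 96.4, 133 and 61.5 CPM against 35.1, 30.5 and 26.4 CPM (-1.91 ± 0.31). That is 0.625% of their tests, near the 0.541% of all genes. At an unadjusted p under 0.05 there were 45 of the 160, against 16.2% of all tests, and the median was -0.39. Among 6 variant H2A genes 1 of 64 tests was past it, H2afj in plasmacytoid dendritic cells (-1.0 ± 0.24), with 15 at an unadjusted p under 0.05, against the same 16.2%, and a median of -0.14.

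The non-coding 2610507I01Rik had few UMIs in Nlrp3-/- cells. Neutrophils had 14.9, 7.57 and 13.1 CPM in wild type and 0, 0.0837 and 0.218 CPM in Nlrp3-/- (452 against 3 UMIs). Myeloid progenitors had 7.20, 8.74 and 8.59 CPM against 0.245, 0.394 and 0.120 CPM (214 against 8 UMIs), a log2 difference of -4.99 ± 0.36. Mesenchymal cells had 3.15, 2.84 and 2.60 CPM against 0.0530, 0.0886 and 0.0885 CPM (249 against 8 UMIs), a log2 difference of -5.14 ± 0.32. Groups were apart in 10 of the 12 types, overlapping in T and NK cells, with 3 UMIs in each genotype, and in plasmacytoid dendritic cells, with 2 and 0. All 5 types tested were past the threshold, and DESeq2 gave an adjusted p in 3 of them, all past it. Over all cells the gene gave 1218 UMIs in wild type and 39 in Nlrp3-/- cells, from all 3 libraries.

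**Figure D2:**
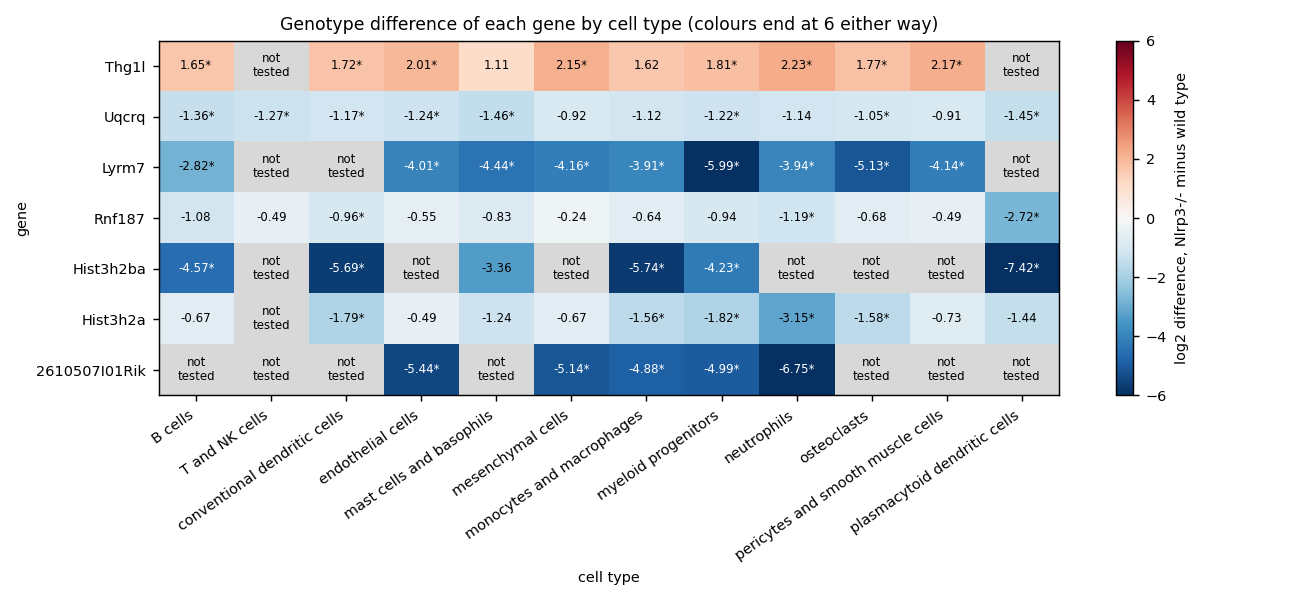
Genotype difference of each gene (rows) in each of the 12 cell types (columns) as the log2 difference, Nlrp3-/- minus wild type, fitted over 3 libraries per genotype. Red is higher and blue lower in Nlrp3-/-, colours end at 6 either way, an asterisk marks the 43 pairs with an adjusted p under 0.05 and grey cells were not tested. The 10 tested cells of the Thg1l row are red and the tested cells of the other 6 rows are blue, and the plasmacytoid dendritic cell column holds the darkest cells of Rnf187 and Hist3h2ba.

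Outside called cells the genotypes kept the same order without overlap for 6 of the members, 1 higher and 5 lower, and overlapped for Rnf187. Of all 16051 genes tested in 1 or more types, 9.49% were higher and 4.07% lower without overlap there, and the members were chosen on these libraries. In barcodes with at most 100 UMIs, which hold mainly free RNA, Thg1l was at 3.31, 5.38 and 5.83 CPM in wild type and 19.6, 19.7 and 17.9 CPM in Nlrp3-/-, and Lyrm7 at 8.78, 7.99 and 8.09 CPM against 0.455, 0.925 and 0.322 CPM. Hist3h2ba there was at 4.47, 3.99 and 7.44 CPM against 0.227, 0.925 and 0.322 CPM. Rnf187 was at 82.7, 78.1 and 69.4 CPM against 48.9, 63.0 and 74.7 CPM, so that Nlrp3-/- replicate 3 lay above wild-type replicate 3. The wild-type levels of Hist3h2ba in mesenchymal cells (0.208 to 0.295 CPM) and neutrophils (0.374 to 0.762 CPM) were below those of the free RNA of the same libraries. How much free RNA adds to low levels in a cell type was not tested.

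Levels across cell types were compared within each genotype, each type against the mean of the other 11, with the library as a block (edgeR quasi-likelihood test, Benjamini-Hochberg over all genes). The members had been left out of the genes used for clustering. Hist3h2ba is left out of the counts here, since types with 0 or few UMIs enter the mean of the others and its fitted contrasts had very large or no standard errors there. In wild type 40 of 72 contrasts of the other members were past an adjusted p of 0.05, where 52.4% of all contrasts of all genes were. In Nlrp3-/-, where Lyrm7 and 2610507I01Rik had too few UMIs to be tested, 28 of 48 were, against 50.7% of all. CPM and these contrasts are not on one scale, since the fit rescales each profile by TMM factors, and the 2 can differ in order: for Uqcrq in wild type, T and NK cells had a higher mean than neutrophils (349.9 against 199.6 CPM), but the fitted log2 difference between them was -0.16. Differences between neighbours below are those of the fit.

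Among the 12 types Rnf187 was highest in plasmacytoid dendritic cells in wild type, at 382 ± 50.6 CPM (SD, n = 3), followed by B cells at 143 ± 14.9 CPM. Erythroid cells, which were not fitted, lay between them at 238.8 ± 36.06 CPM. Plasmacytoid dendritic cells were above the other types by 1.81 ± 0.09 (log2, SE, adjusted p = 1.3e-16) and above B cells with an adjusted p of 5e-10. In Nlrp3-/- the same cells were at 68.4 ± 15.4 CPM on 47 UMIs, rank 8 of 12, and the contrast was -0.34 ± 0.18 (adjusted p = 0.17). The 2 contrasts were not tested against each other, and the genotype difference in these cells is a description only. Of the 12 types in Nlrp3-/-, osteoclasts had the highest mean, 88.5 ± 16.2 CPM, which did not differ from the next type, mast cells and basophils (adjusted p = 0.061). Erythroid cells of Nlrp3-/- were above both, at 158.5 ± 21.13 CPM, and were not fitted. Neutrophils were lowest in both genotypes, at 21.9 ± 1.85 CPM in wild type and 11.3 ± 1.65 CPM in Nlrp3-/-. In wild type 4 of the 11 neighbouring pairs in the order of means differed, 3 along the order and 1, endothelial cells and conventional dendritic cells, against it (log2 difference -0.29, adjusted p = 0.037). In Nlrp3-/- 1 did, along the order.

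Among the fitted types, Hist3h2ba had its highest wild-type means in plasmacytoid dendritic cells (70.4 ± 27.3 CPM) and B cells (56.2 ± 25.3 CPM). Conventional dendritic cells came next in the fitted order, at 18 ± 7.73 CPM. The first pair did not differ (adjusted p = 0.75), and B cells were above conventional dendritic cells (adjusted p = 3.2e-05). Conventional dendritic cells were above T and NK cells at 7.88 ± 2.58 CPM (adjusted p = 0.0099). Between B cells and conventional dendritic cells lay the mean of erythroid cells, which were not fitted, at 36.27 ± 15.25 CPM. In Nlrp3-/- the means of the fitted types stood in another order. T and NK cells were at 6.87 ± 1.18 CPM on 18 UMIs and B cells at 3.23 ± 2.52 CPM on 23 UMIs. These 2 types did not differ from each other (adjusted p = 0.094). The erythroid cells of Nlrp3-/-, again not fitted, had a higher mean than both, 15.6 ± 9.23 CPM on 52 UMIs. Mesenchymal cells of Nlrp3-/- had 13 UMIs. The other 9 fitted types had 7 or fewer, with 0 in plasmacytoid dendritic cells and in pericytes and smooth muscle cells. No difference from the mean of the other types is given for this gene.

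Hist3h2a spread less. In wild type its mean fell from 49.5 ± 4.02 CPM in plasmacytoid dendritic cells through 35.7 ± 3.26 CPM in B cells and 33.9 ± 2.12 CPM in conventional dendritic cells to 5.90 ± 0.595 CPM in neutrophils, and none of the 11 neighbouring pairs differed, although 45 of all 66 pairs did by this edgeR test. Plasmacytoid dendritic cells were above the other types by 1.13 ± 0.25 (adjusted p = 0.00071) and B cells by 0.75 ± 0.14 (adjusted p = 1.7e-05). In Nlrp3-/- B cells came first at 23.4 ± 2.35 CPM (1.42 ± 0.19 above the others, adjusted p = 1.4e-07), and plasmacytoid dendritic cells ranged from 8.65 to 33.4 CPM on 15 UMIs. Neutrophils were lowest at 0.801 ± 0.413 CPM, -2.80 ± 0.30 from the others (adjusted p = 1.7e-09).

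**Figure D3:**
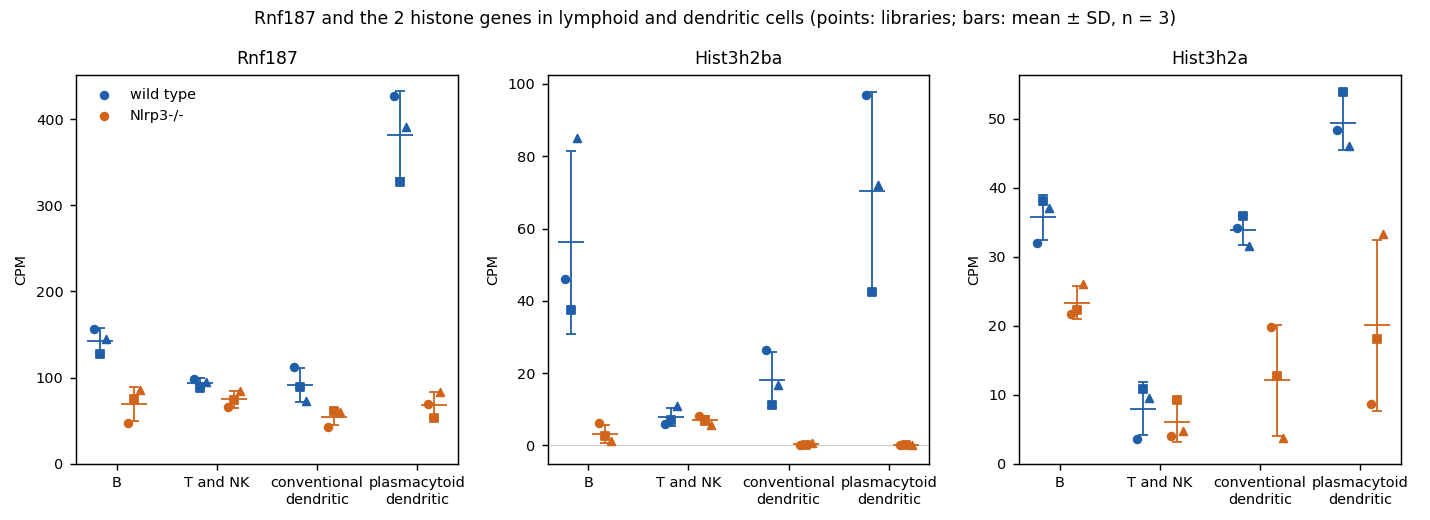
Rnf187, Hist3h2ba and Hist3h2a in B cells, T and NK cells, conventional dendritic cells and plasmacytoid dendritic cells. Points are libraries in CPM on a linear axis, with circle, square and triangle for replicates 1, 2 and 3, and bars are the mean ± SD of 3 libraries, wild type in blue and Nlrp3-/- in orange. The wild-type plasmacytoid dendritic cells lie at 327 to 427 CPM for Rnf187 and at 42.4 to 96.9 CPM for Hist3h2ba, and the orange Hist3h2ba points of the same cells lie at 0.

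Uqcrq was highest in osteoclasts in both genotypes, at 1181 ± 253 CPM in wild type and 659 ± 71.3 CPM in Nlrp3-/-. Osteoclasts were above the other types by 1.41 ± 0.06 in wild type (adjusted p = 4.5e-19) and by 1.59 ± 0.06 in Nlrp3-/- (adjusted p = 9.3e-20), and above the second of the 12 types, myeloid progenitors, in each (adjusted p = 2e-08 and 9.7e-11). Erythroid cells, which were not fitted, were at 745.6 ± 181.6 CPM in wild type and 301.1 ± 30.58 CPM in Nlrp3-/-. Neutrophils had the lowest mean CPM, ranging from 142 to 233 CPM in wild type and from 104 to 109 CPM in Nlrp3-/-. Among neighbours in the order of mean CPM, 5 of 11 pairs differed in wild type, 4 along the order and 1 against it. In Nlrp3-/- 9 of 11 differed, 6 along the order and 3 against it, among them T and NK cells and neutrophils, where the fit placed T and NK cells lower (log2 difference -0.46, adjusted p = 0.00026). For the pairs that differed against it, the order thus depended on the scale. The log2 CPM of Uqcrq over the 72 profiles of 6 libraries and 12 types was compared with 3875 genes, those tested in every type. Among them the 3 that followed it most closely were Atp5j2 (Pearson r = 0.96), Atp5mpl (r = 0.95) and Cox6b1 (r = 0.95). They encode subunits of ATP synthase and of cytochrome c oxidase. Profiles share libraries and cell types, so these are a description.

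Lyrm7 was also highest in osteoclasts in wild type, at 17.5 ± 2.69 CPM, with mast cells and basophils at 17.4 ± 2.80 CPM beside them (adjusted p = 0.45). Osteoclasts were above the mean of the other types by 1.18 ± 0.16 (adjusted p = 1.5e-07) and neutrophils below it by 0.84 ± 0.19 (log2 contrast of -0.84, adjusted p = 0.00016). No 2 neighbours in its order differed, and 33 of 66 pairs did.

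Thg1l was highest in mast cells and basophils in wild type (15.9 ± 2.76 CPM), 1.54 ± 0.19 above the other types (adjusted p = 2.8e-08), followed by osteoclasts at 10.5 ± 3.38 CPM, from which they did not differ (adjusted p = 0.14). In Nlrp3-/- osteoclasts (40.1 ± 0.269 CPM) and mast cells and basophils (39.1 ± 1.46 CPM) changed places, again without a difference (adjusted p = 0.11). Erythroid cells, which were not fitted, were at 15.87 ± 10.19 CPM in wild type and 43.53 ± 10.59 CPM in Nlrp3-/-. Neutrophils were lowest in both genotypes, at 0.560 ± 0.264 and 3.06 ± 0.281 CPM, and differed from the next type up (adjusted p = 7.2e-06 and 1.4e-09), the single neighbouring pair that did in each order. Of 19 genes for histidine tRNA charging and tRNA end processing, 0 of 178 genotype tests were past the threshold by edgeR, with 30 at an unadjusted p under 0.05, near the 16.2% of all genes, and 1 of 114 past it by DESeq2 (3.64% over all genes), and the median was -0.14.

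2610507I01Rik differed from the other members in having its highest wild-type mean in neutrophils, at 11.9 ± 3.81 CPM. In the edgeR fit neutrophils were 3.13 ± 0.18 above the other types (adjusted p = 2.2e-16). Myeloid progenitors followed at 8.18 ± 0.849 CPM, 1.68 ± 0.21 above the other types (adjusted p = 3.8e-08). The fit placed neutrophils above them by a log2 difference of 1.33 (adjusted p = 9.4e-06). In CPM the ranges of these 2 types overlapped. In wild-type replicate 2 neutrophils were at 7.57 CPM, below myeloid progenitors at 8.74 CPM. The size of this difference thus depended on the scale. Mast cells and basophils came next at 4.95 ± 1.75 CPM, below myeloid progenitors (adjusted p = 0.0055). Among the remaining types no neighbours differed.

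Likeness to other genes was measured over both genotypes together, so it holds the genotype difference as well as the difference between types. The genes closest to Thg1l over the 72 profiles were the X-linked Eif2s3x (r = 0.85), mt-Nd3 (0.72) and Ide (0.71), whose r was 0.67, 0.54 and 0.79 within wild type and 0.75, 0.72 and 0.67 within Nlrp3-/-. Those closest to Lyrm7 were Ddx3y (0.91), Tpm3-rs7 (0.89) and Gm11808 (0.71). Ddx3y is Y-linked, and within the 36 wild-type profiles alone the r with Lyrm7 was -0.71 for Ddx3y, 0.03 for Tpm3-rs7 and 0.36 for Gm11808. For 2610507I01Rik they were Ddx3y (0.78), Tpm3-rs7 (0.77) and Tma7 (0.66), which within wild type had an r of 0.06, 0.08 and 0.24. For the 3 consecutive genes they were Rpl31 (0.81), Cops4 (0.74) and Rpl13a (0.74) for Rnf187, Rps27 (0.80), Rps27rt (0.77) and Snrnp48 (0.72) for Hist3h2ba, and Rnf187 itself (0.66), Ccdc59 (0.66) and Mrpl52 (0.59) for Hist3h2a. Within the 36 profiles of a genotype, Rnf187 and Hist3h2ba had an r of 0.62 in wild type and 0.12 in Nlrp3-/-, and Rnf187 and Hist3h2a had 0.50 and 0.54.

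The stretch of chromosome 11 around the members was described with the same genotype fit. Within 20 Mb of Nlrp3, 471 genes were tested in at least 1 type. Leaving out Nlrp3 and the 7 members, 22 of 463 (4.75%) were past the threshold in 1 or more types, with 22 calls higher and 8 lower. On the rest of chromosome 11 it was 14 of 803 genes (1.74%), each in 1 type, and on the other chromosomes, without X and Y, 302 of 14271 (2.12%). These shares moved with single libraries: without wild-type replicate 3 they were 35.8%, 32.4% and 32.7%, and without wild-type replicate 1 they were 0.833%, 0.366% and 0.598%. Leaving out any 1 library took the 30 calls near Nlrp3 to 5 to 415, and with the other alternatives they were 19 to 222. With DESeq2 the shares were 14.5%, 8.34% and 9.49%. The 20 genes tested within 1 Mb on the lower-coordinate side included 6 that were past it, 4 of them members, and the 17 genes within 1 Mb on the higher-coordinate side included 0, by the edgeR fit. Of the 155 tests of those 17 genes, 23 had an unadjusted p under 0.05, near the 16.2% of all genes, and DESeq2 put 0 of 96 past it, against 3.64% of all. From 2 to 5 Mb, 3 of 19 genes tested on the lower-coordinate side were past the threshold by edgeR, 1 of them a member. On the higher-coordinate side 5 of 28 were. From 1 to 2 Mb it was 3 of 13 on the lower-coordinate side and 1 of 19 on the higher-coordinate side. In the same order it was 5 of 65 against 1 of 46 from 5 to 10 Mb. It was 4 of 31 against 0 of 105 from 10 to 15 Mb, and 1 of 12 against 0 of 95 from 15 to 20 Mb. The lower-coordinate counts from 5 to 10 Mb and from 10 to 15 Mb each include 1 member.

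**Figure D4:**
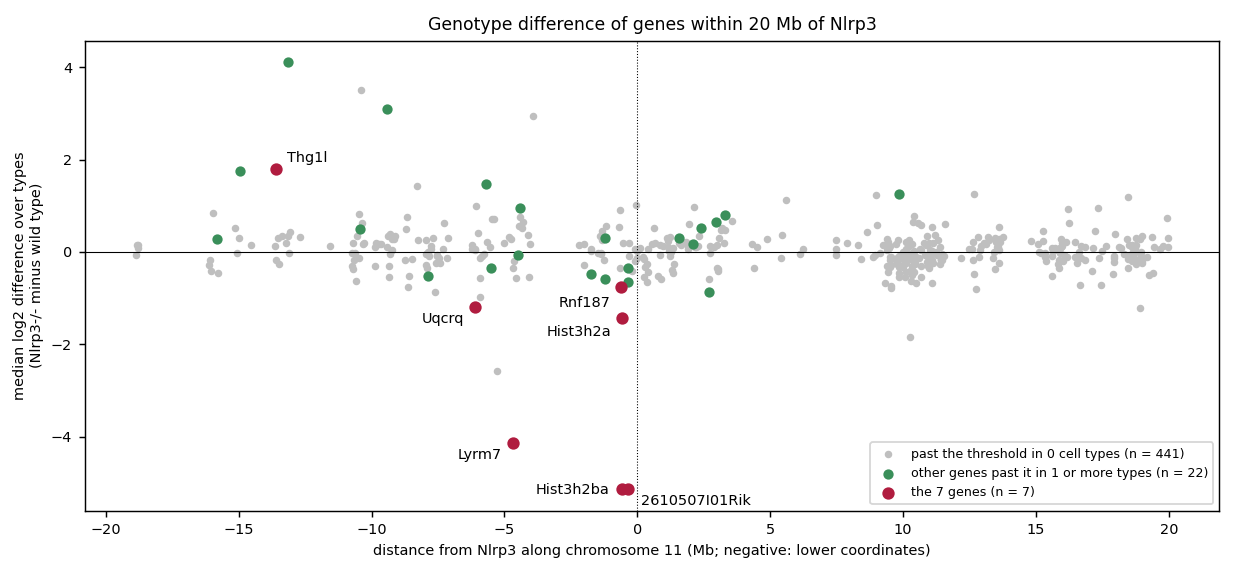
Median log2 genotype difference over the cell types in which a gene was tested (y axis, Nlrp3-/- minus wild type) against its distance from Nlrp3 along chromosome 11 in Mb (x axis, negative for lower coordinates), for the tested genes within 20 Mb other than Nlrp3. Grey points are the 441 genes past the threshold in no cell type, green points the other 22 genes past it in 1 or more types and red points the 7 members, which all lie to the left of Nlrp3.

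The rule's edges can be read from the same fit. The member past the threshold in the fewest types was Rnf187, with 3. Beyond the members and Nlrp3, 6 genes of the window were past it in 2 or 3 types here: Gm2a and Tvp23b in 3 each, both higher, Gm12195 and Gm12216 in 2 each, both higher, and Zfp672 and Adora2b in 2 each, both lower. Gm2a, which encodes the ganglioside activator protein of lysosomes, was at 68.0, 98.6 and 81.1 CPM in wild-type osteoclasts and 273, 214 and 216 CPM in Nlrp3-/- osteoclasts. Tvp23b was at 25.7, 31.4 and 38.6 CPM over all wild-type cells and 59.9, 66.5 and 64.9 CPM over all Nlrp3-/- cells. Tvp23b and Adora2b lie on the higher-coordinate side of Nlrp3, 3.31 and 2.68 Mb away. Gm2a, Gm12195, Gm12216 and Zfp672 lie on the lower-coordinate side. At the distance limit, Thg1l at 13.6 Mb was the farthest member, and the nearest gene beyond 20 Mb that was past the threshold was Slfn2 at 23.5 Mb, in 1 type.

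Rnf187, Hist3h2ba and Hist3h2a lie next to one another among the tested genes. Where the nearest tested gene on a side of a member was not itself a member, it mostly did not pass. Lsm11 and Sox30 beside Thg1l, Aff4 and Gdf9 beside Uqcrq, Cdc42se2 and Hint1 beside Lyrm7, Zfp39 beside Rnf187 and 2310058D17Rik beside Hist3h2a were past the threshold in 0 types by edgeR. Of the 52 tests of these 8 genes, 11 had an unadjusted p under 0.05, and DESeq2 put 2 of 44 past the threshold, against 16.2% and 3.64% over all genes. Their median log2 differences over the types tested ran from -1.38 to 0.30. The lowest was that of 2310058D17Rik, tested in 2 types and close to the -1.44 of Hist3h2a beside it, and Gdf9, 0.191 kb from Uqcrq, had 0.06 over 2 types. Next to 2610507I01Rik, Guk1 was past it in 1 type, endothelial cells (-0.76 ± 0.13), and Mrpl55, 100 bases away, in osteoclasts, at 111, 119 and 112 CPM in wild type and 73.6, 65.9 and 74.8 CPM in Nlrp3-/- (-0.87 ± 0.13).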

How the data were processed

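The authors deposited raw counts, the number of UMIs per gene and barcode in 6 libraries made with 10x 3′ chemistry. The file headers name Cell Ranger 4 and the submitters' processing notes Cell Ranger 2.1.1 with mm10. Matrices were unfiltered and not normalized, and no replicates were pooled in them. No cell labels were used.

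Barcodes with at least 500 UMIs, 200 genes and at most 10% mitochondrial UMIs that differed from the ambient profile (barcodes of at most 100 UMIs, false discovery rate 0.01) were kept: 102465 passed the UMI limit, 97630 were called and 94102 passed all limits. Scrublet's automatic threshold marked 9853 of them, 0 to 8213 per library, so 13207 cells were removed by rank of that score instead, at 0.8% per 1000 cells. The remaining 80895 cells gave 38 clusters (scanpy 1.11.5, Leiden resolution 1.0, without the 7 members, Nlrp3 and 6 sex-linked genes). Clusters were named from marker lists where at least 3 markers passed, 2 clusters (1640 cells) stayed unnamed, and those with over 75% of cells from 1 library were set aside. These naming thresholds and the set-aside rule were chosen with the clusters already in view.

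Counts were summed per library and type and tested with edgeR 4.0.16 (TMM, filterByExpr, quasi-likelihood test, R 4.3.3) over all genes, with Benjamini-Hochberg adjustment. CPM is per 1000000 UMIs of a type in a library. The SE of a log2 difference is its absolute value divided by the square root of its quasi-likelihood F. It therefore rests on dispersions moderated over genes and is not the spread of 3 libraries alone. The library totals of 97042713 to 134901999 UMIs, with a median of 3171 to 6676 UMIs per cell by library, limit the low values, and limits from counts cover counting error only. The genotype fit in monocytes and macrophages and in plasmacytoid dendritic cells, and the wild-type cell-type fit, were run on simulated counts. Those counts used dispersions estimated from these data, and their outcome is not given here. Cell calling, doublet removal, clustering and naming were not simulated. DESeq2 1.42.0, other normalizations, filters, cell limits, clusterings and libraries left out were tried.

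Of 32285 gene identifiers 32235 were in GENCODE vM21, 31502 with the same symbol. The members and the gene lists were chosen with earlier results of these data known. The rule for named genes was all members and Nlrp3, genes within 20 Mb past the threshold in 2 or more types, up to 3 genes per list, the 3 genes most like each member, the nearest tested gene on each side, and sex-linked genes as a check. Mt-Cytb, Lyrm7os, Slfn2, Trim17 and Hist3h2bb-ps were named outside that rule after their values or positions had been seen.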

Additional observations from a re-analysis of the deposited data

How the results depend on the processing

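No member changed direction in any pair of gene and cell type that an alternative fitted: all 65 under 12 of the 16 alternatives, 64 without wild-type replicate 1 or 3, 60 with no ambient test and 56 with no doublet removal. The count of 43 pairs was 35 to 60 under the alternatives that kept all libraries (60 with no filter on low counts, 40 with DESeq2, which gave no adjusted p for 20 of the 65 pairs, and 35 with the replicate block) and 22 to 58 with 1 library left out. Without Nlrp3-/- replicate 2 it was 22, without Nlrp3-/- replicate 3 23, without wild-type replicates 1 and 2 24 and 27, without Nlrp3-/- replicate 1 28 and without wild-type replicate 3 58. Among the other genes near Nlrp3 the 30 calls became 222 with no filter on low counts, 110 with DESeq2, 19 with no doublet removal, 19 with the replicate block and 5 to 415 with 1 library left out. The 6 calls in the pathway lists became 104 with no filter, 71 with DESeq2, 1 with no ambient test, 3 with no doublet removal and 0 to 173 with 1 library left out. Over all genes the 645 calls became 5883 with no filter, 2913 with DESeq2 and 263 to 12783 with 1 library left out, the highest of each without wild-type replicate 3. With no ambient test plasmacytoid dendritic cells, and with no doublet removal both dendritic types, were not recovered, so fewer pairs were tested. The causes of the other shifts were not tested.

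No pairing by replicate number was seen: deviations of same-numbered libraries from their group means correlated at -0.06, -0.65 and -0.13 over 17303 genes. Between differently numbered libraries the correlations ran from -0.49 to 0.56. With 3 libraries per genotype these values cannot decide whether libraries shared a batch. The replicate block moved the 43 calls to 35, the 645 to 626, the 30 to 19 and the 6 to 9.

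Across cell types the members' 48 contrasts past the threshold in wild type were 34 to 51 under the alternatives, lowest with no library block and without wild-type replicate 1, and the 30 in Nlrp3-/- were 23 to 33. These counts include Hist3h2ba. Without it, 255 refits of the 20 called contrasts of at least 1 on the log2 scale left 251 past the threshold and 4 not, all 4 of 2610507I01Rik in conventional dendritic cells, and 0 changed sign. Depth limits Hist3h2ba, Lyrm7 and 2610507I01Rik in Nlrp3-/- cells, at 132, 112 and 39 UMIs.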
